A study of Homo sapiens with 6 samples.

Results

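A set of 10 genes that mark the epithelial-mesenchymal transition (EMT) was followed in RNA-seq of SiHa PR cells with and without overexpression of P4HA3. SiHa is an established line of human cervical squamous cell carcinoma, and SiHa PR cells are the parental cells from which the study derived its lymph node metastatic SiHa LNM2 cells. P4HA3 is an alpha subunit of the collagen prolyl hydroxylase. The study's methods describe lentiviral overexpression of its cDNA from a pCDH vector and, separately, a doxycycline-inducible line, and do not say which was sequenced. The series holds 6 libraries, 3 of control SiHa PR cells (SiHa PR) and 3 of P4HA3-overexpressing cells (SiHa PR P4HA3). The labels give no drug treatment or time point for either group. Whether the transduced cells were a pool or 1 clone is not given in the sources used here. Nor do these sources say whether the sequenced control cells carried an empty vector. The 10 markers were chosen by name among the 60664 genes of the count table, with earlier results of these data known. They were the epithelial adhesion genes CDH1 and EPCAM, the mesenchymal genes CDH2, VIM and FN1, the transcription factors ZEB1, ZEB2, SNAI1 and SNAI2, and SOX9. All 10 had enough counts to be tested.

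EMT is the program by which epithelial cells loosen their junctions and take on the shape and movement of mesenchymal cells. Its best known step is the repression of CDH1, the gene of E-cadherin, by transcription factors of the SNAI and ZEB families, which bind E2-box sequences in the promoters of epithelial genes. In carcinomas the program is often partial, with epithelial and mesenchymal genes expressed side by side.

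The whole table set the frame for these genes. The libraries held between 21773488 and 24939948 counts, and values are counts scaled to library size as CPM. P4HA3 itself stood at 3.53, 2.91 and 3.80 CPM in control replicates 1, 2 and 3 and at 1934, 1991 and 1936 CPM in overexpression replicates 1, 2 and 3, so the labels of all 6 libraries held. The growth protocol deposited with the samples describes a uterine smooth muscle tissue, whereas the labels name SiHa cells. The simple-epithelial keratins KRT7 and KRT8 averaged 4329 and 1817 CPM in control cells. Of 10 smooth muscle genes, 5 were expressed enough to be tested and the list summed to 157 to 163 CPM in control cells. TAGLN and ACTA2 averaged 8.84 and 7.78 CPM there, so other genes of the list held most of that sum. DES and MYH11, which define mature smooth muscle, averaged 0.111 and 0.166 CPM. Of 15130 genes tested with edgeR's quasi-likelihood test, 1416 were higher and 1731 lower with overexpression at an adjusted p under 0.05. With the GC trend described below removed, together with a trend on transcript length, these numbers became 1602 and 1202. Values given below with the GC trend removed come from this joint correction, and no fit removed GC content alone. Dropping control replicate 1, control replicate 2 or overexpression replicate 3 brought all calls to 781, 534 and 904, and leaving out overexpression replicate 1 brought them to 5530. The sources do not say whether the replicates were separate cultures, and p-values measure only the spread between these samples, which may be technical.

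Of the 10 markers, 6 passed the test (against 20.8% of all genes tested). Because the markers were chosen with earlier results of these data known, such shares are a description only. ZEB1, ZEB2 and SNAI2 were higher with P4HA3 overexpression (3 of 10, against 9.36% of all genes), and CDH1, FN1 and SNAI1 were lower (3 of 10, against 11.4%). The remaining genes, EPCAM, CDH2, VIM and SOX9, did not pass. Lower E-cadherin mRNA and higher mRNA of 3 of its repressors therefore stood beside lower levels of SNAI1 and of fibronectin mRNA, and the mesenchymal genes CDH2 and VIM showed no change past the test. The groups did not overlap in 6 of the 10 markers, against 40.1% of all genes tested (19.7% with overexpression higher and 20.4% with it lower). These were the same 6 markers that were called, so the separation is not independent of the calls. With 1 library left out, the called markers numbered 3 (control replicate 1), 1 (control replicate 2) and 3 (overexpression replicate 3), and CDH1 was the call that held in every one of these fits.

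**Figure D1:**
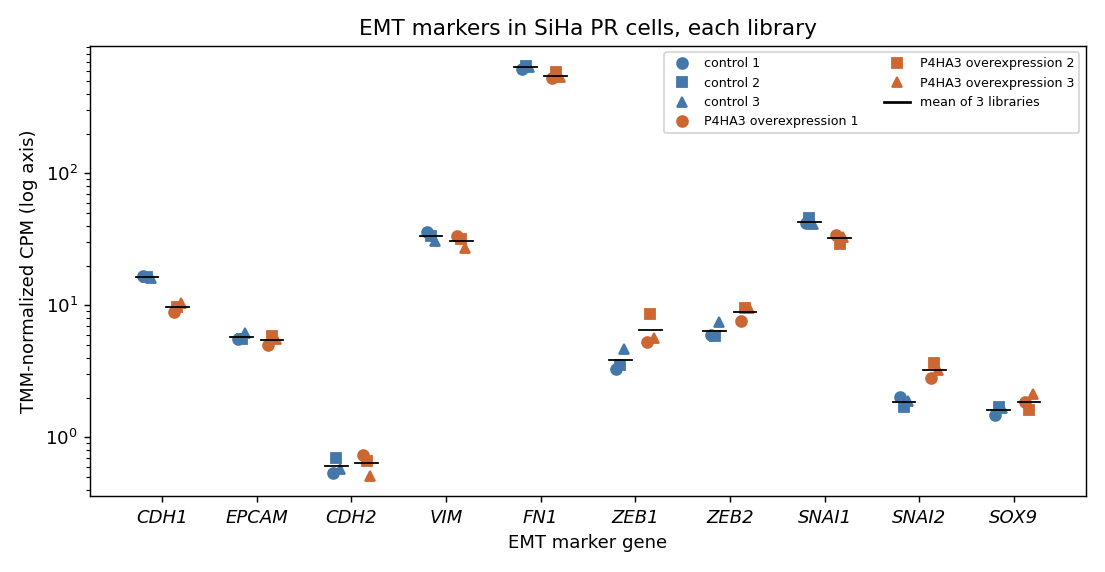
TMM-normalized CPM (log axis) of the 10 EMT markers in each of the 3 control libraries (blue) and the 3 libraries with P4HA3 overexpression (orange), with black lines at group means. CDH1 fell from a mean of 16.5 to 9.66 CPM and SNAI2 rose from 1.86 to 3.25 CPM with no overlap of the groups, whereas the groups of EPCAM, CDH2, VIM and SOX9 overlapped.

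CDH1 (chromosome 16, 68737292 to 68835537 in GRCh38, plus strand) encodes E-cadherin, the adhesion molecule of epithelial adherens junctions. It measured 16.6, 16.5 and 16.2 CPM in control replicates and 8.85, 9.65 and 10.5 CPM in overexpression replicates. All 3 overexpressing libraries lay well under the control libraries, which were close to each other (SD 0.211 CPM). The log2 fold change was -0.77 ± 0.092 (SE, n = 3 per group, 95% interval -0.97 to -0.56), equal to 0.587 of the control level, with an adjusted p of 0.00114. Only 2.18% of tested genes had a lower fold change. In bulk RNA, fewer cells that express a gene and less mRNA per cell cannot be told apart, here and for every other marker. The fall held in all 10 alternative analyses of the full set of libraries and with each library left out, where it ranged from -0.83 to -0.71.

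EPCAM (chromosome 2, 47345158 to 47387601, plus strand) encodes an epithelial cell adhesion molecule that does not belong to the cadherins. It measured 5.58, 5.59 and 6.13 CPM in control cells and 4.98, 5.91 and 5.56 CPM in overexpressing cells, and the groups overlapped. Its log2 fold change was -0.07 ± 0.11 (95% interval -0.33 to 0.18, adjusted p = 0.658). Its interval lay wholly above that of CDH1, although the difference between these genes was not itself tested.

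CDH2 (chromosome 18, 27932879 to 28177946, minus strand) encodes N-cadherin, the cadherin that replaces E-cadherin in a classic cadherin switch. Its mRNA was scarce, with 13 to 17 counts per library. It stood at 0.534, 0.704 and 0.572 CPM in control cells and at 0.730, 0.667 and 0.512 CPM with overexpression, and the groups overlapped. The log2 fold change was 0.08 ± 0.27 (adjusted p = 0.867), and at this depth its 95% interval reached from -0.52 to 0.68. A gain of CDH2 was thus not detectable here, and its direction changed in some alternative analyses.

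VIM (chromosome 10, 17228241 to 17237593, plus strand) encodes vimentin, the intermediate filament of mesenchymal cells. Control cells held 35.7, 33.7 and 30.6 CPM and overexpressing cells 33.8, 31.6 and 27.3 CPM. The groups overlapped, and the log2 fold change was -0.11 ± 0.094 (95% interval -0.32 to 0.10, adjusted p = 0.395). With the GC trend removed, its value was 0.0043 (95% interval -0.16 to 0.17, adjusted p = 0.975), so a rise of VIM mRNA above 0.17 on the log2 scale lay outside the interval of either fit.

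FN1 (chromosome 2, 215360440 to 215436073, minus strand) encodes fibronectin, an extracellular matrix protein commonly gained in EMT. It was the most abundant marker and moved downward, from 617, 646 and 642 CPM in control cells to 524, 582 and 540.0 CPM with overexpression. Every overexpressing library lay under every control library. The change was small, with a log2 fold change of -0.21 ± 0.060 (95% interval -0.34 to -0.08, adjusted p = 0.0343). The call was lost without control replicate 1 (-0.23, adjusted p = 0.0968), control replicate 2 (-0.20, 0.122), control replicate 3 (-0.20, 0.0723) or overexpression replicate 3 (-0.20, 0.132). A gene count does not separate the splice forms of fibronectin.

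ZEB1 and ZEB2 encode zinc-finger homeobox repressors of CDH1 and of other epithelial genes. ZEB1 (chromosome 10, 31318495 to 31529814, plus strand) measured 3.29, 3.57 and 4.70 CPM in control cells and 5.24, 8.67 and 5.68 CPM with overexpression. Overexpression replicate 2 was far above the rest and the lowest overexpressing library was only slightly above control replicate 3. The log2 fold change was 0.76 ± 0.21 (95% interval 0.30 to 1.21, adjusted p = 0.0300), a 1.69-fold rise. The call was lost without control replicate 1 (0.65, adjusted p = 0.114), control replicate 2 (0.71, 0.138) or overexpression replicate 3 (0.85, 0.0640), and without overexpression replicate 2 it held at 0.50 (adjusted p = 0.0451), over 1.5 times lower than with it.

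ZEB2 (chromosome 2, 144364364 to 144521057, minus strand) measured 5.95, 5.82 and 7.44 CPM in control cells and 7.64, 9.52 and 9.54 CPM with overexpression. Control replicate 3 almost reached overexpression replicate 1, and the groups did not overlap. The log2 fold change was 0.47 ± 0.13 (95% interval 0.18 to 0.77, adjusted p = 0.0330), a 1.39-fold rise. This call was lost without control replicate 1 (0.42, adjusted p = 0.127), control replicate 2 (0.41, 0.146), overexpression replicate 2 (0.42, 0.0510) or overexpression replicate 3 (0.42, 0.124). It was also lost when the trends on GC content and length were removed together (0.22, adjusted p = 0.152).

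The pair of ZEB genes share sequence features that the other markers mostly lack. Both are textbook targets of the miR-200 family, epithelial microRNAs that repress them through the 3′ UTR and are in turn repressed by them. The family has 2 seeds that differ in 1 base, and the RefSeq sequences (GRCh38.p14) of the mature microRNAs are shown to make this visible, with the seed (bases 2 to 8) in capitals.
miR-200b-3p: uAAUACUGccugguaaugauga
miR-200c-3p: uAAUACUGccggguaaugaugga
miR-429: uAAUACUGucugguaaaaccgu
miR-200a-3p: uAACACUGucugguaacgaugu
miR-141-3p: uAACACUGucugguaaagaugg

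The match to the first seed, CAGTATT on the transcript strand, was counted in the 3′ UTR of each gene's canonical transcript. ZEB1 held 6 matches and ZEB2 held 5, FN1 held 2, SNAI2 held 1, and the other 6 markers held none. These 3′ UTRs were 2540 bases long in ZEB1 and 5370 in ZEB2, against 322 (VIM) to 2038 (CDH1) in the other markers. The counts were not divided by length. At least 1 match was present in 19.1% of 12482 tested transcripts with a 3′ UTR, whereas 6 or more were present in 2 of them and 5 or more in 6. The match to the second seed, CAGTGTT, occurred 3 times in ZEB1, 4 times in ZEB2, once in SOX9 and in no other marker, and 21.3% of transcripts held at least 1. For each ZEB gene 3 sites whose match is followed by an A are printed from the GRCh38 reference, with the seed match in capitals. The ZEB1 sites not printed are followed by another base, and the ZEB2 sites not printed include both kinds.
ZEB1, chr10:31527618-31527642 (+): attgttttatcttatCAGTATTatc
ZEB1, chr10:31528492-31528516 (+): ctgatttttacctatCAGTATTatt
ZEB1, chr10:31528562-31528586 (+): tgtcttcaaacctggCAGTATTaat
ZEB2, chr2:144388987-144389011 (-): cgcactacaatgcatCAGTATTatg
ZEB2, chr2:144388629-144388653 (-): ttgaagcacccatgtCAGTATTaga
ZEB2, chr2:144388544-144388568 (-): gttcattaattttgtCAGTATTaca

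These matches are letters in a reference sequence and not measured binding. Poly-A libraries do not measure mature microRNAs. MIR200CHG, the host gene of miR-200c and miR-141, and MIR205HG, the host gene of miR-205, had 0 counts in all 6 libraries, which allows up to 0.118 to 0.141 CPM per library (3 counts, counting error only). The genes of miR-200b, miR-200a and miR-429 lie close together on chromosome 1, and no host transcript was examined for them.

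Promoter windows of 300 bases from RefSeq (GRCh38.p14, 250 bases before to 50 after a start site) matched 5 of the 10 markers, namely ZEB1, ZEB2, FN1, VIM and CDH2. They were searched on both strands for the E2-box bound by SNAI and ZEB proteins, CAGGTG or its complement CACCTG. The windows at the canonical starts of ZEB2, FN1, VIM and CDH2 held none. ZEB1 had 7 windows, of which 2 held an E2-box. That at its canonical start held the most, 3, at -242, -85 and 33 from the start. It is shown because 20.6% of 35116 RefSeq windows held an E2-box but 0.635% held 3 or more. These shares are per window and not per gene. The boxes are in capitals.
ZEB1 promoter, chr10:31318966-31319265 (+): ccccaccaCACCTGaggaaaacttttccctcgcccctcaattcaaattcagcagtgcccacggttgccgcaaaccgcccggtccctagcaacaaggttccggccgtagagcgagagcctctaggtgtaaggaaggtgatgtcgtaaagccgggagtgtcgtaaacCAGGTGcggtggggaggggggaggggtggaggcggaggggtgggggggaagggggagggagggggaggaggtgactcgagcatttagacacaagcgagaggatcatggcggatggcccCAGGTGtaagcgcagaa

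SNAI1 and SNAI2 encode the zinc-finger repressors Snail and Slug, and they moved in opposite directions. SNAI1 (chromosome 20, 49982980 to 49988886, plus strand) fell from 41.9, 45.6 and 41.4 CPM in control cells to 34.3, 29.4 and 32.9 CPM with overexpression, with a clear gap between the groups. Its log2 fold change was -0.41 ± 0.078 (95% interval -0.59 to -0.24, adjusted p = 0.00789). The call was lost without control replicate 2 (-0.37, adjusted p = 0.0581). Removing the GC trend left the call but brought the fall to -0.22 (adjusted p = 0.0127).

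SNAI2 (chromosome 8, 48917598 to 48921740, minus strand) rose from 2.01, 1.69 and 1.88 CPM to 2.83, 3.69 and 3.23 CPM. All overexpressing libraries were above all control libraries, on 36 to 49 counts in control cells and 66 to 83 with overexpression. The log2 fold change was 0.80 ± 0.16 (95% interval 0.45 to 1.15, adjusted p = 0.00959), a 1.74-fold rise that exceeded 99.3% of tested genes. The call was lost without control replicate 2 (0.74, adjusted p = 0.0617).

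SOX9 (chromosome 17, 72121020 to 72126416, plus strand) encodes a transcription factor of progenitor cells that cooperates with Slug in some epithelia, and it was one of the genes the study screened in its metastatic cells. It measured 1.48, 1.69 and 1.68 CPM in control cells and 1.85, 1.60 and 2.13 CPM with overexpression, and the groups overlapped. The log2 fold change of 0.21 ± 0.17 did not pass the test (95% interval -0.18 to 0.60, adjusted p = 0.392).

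**Figure D2:**
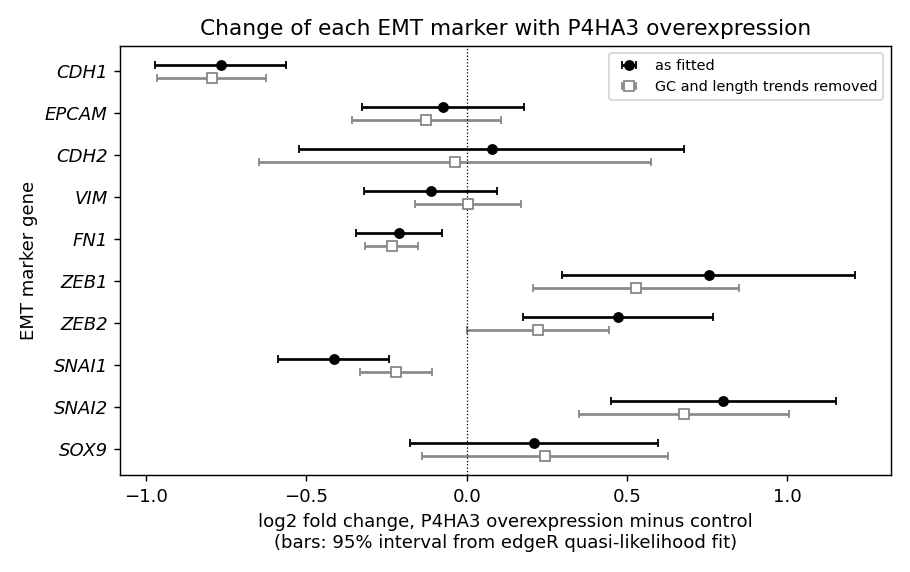
Log2 fold change of each EMT marker between P4HA3 overexpression and control, with 95% intervals from edgeR's quasi-likelihood fit, as fitted (black circles) and with GC and length trends removed (grey squares). CDH1 moved from -0.77 to -0.80 and FN1 from -0.21 to -0.23, while SNAI1 moved from -0.41 to -0.22, ZEB2 from 0.47 to 0.22 and ZEB1 from 0.76 to 0.53.

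Levels of different genes were compared as CPM per kilobase of canonical transcript. In control cells the order was FN1 (75.7), SNAI1 (25.2), VIM (15.5), EPCAM (3.73), CDH1 (3.42), SNAI2 (0.853), ZEB2 (0.691), ZEB1 (0.649), SOX9 (0.411) and CDH2 (0.150). In this order SNAI2 and ZEB2, and ZEB2 and ZEB1, had overlapping ranges over the control libraries, and all other neighbours were separate. SNAI1 was thus the most abundant of the 4 repressors by a wide margin, and it stayed so with overexpression at 18.9 CPM per kilobase against 1.49 for SNAI2, 1.10 for ZEB1 and 0.961 for ZEB2. CDH1 fell to 2.01 per kilobase, and ZEB1 moved ahead of ZEB2, with overlapping ranges.

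Ratios of counts within a library do not depend on how libraries are scaled, and 5 of them were computed as a description without a test. Transcript length was not divided out, so each ratio is read only between libraries. The GC trend described below was not removed from the ratios. ZEB1 (38.9% GC) and CDH1 (48.2%) differ in GC content, as do SNAI2 (41.2%) and SNAI1 (58.4%). There were 0.199, 0.217 and 0.291 ZEB1 counts per CDH1 count in control cells and 0.593, 0.899 and 0.542 with overexpression. The mean log2 ratio of ZEB1 to CDH1 thus moved from -2.11 ± 0.29 (SD, n = 3) to -0.60 ± 0.39, a 2.85-fold shift. ZEB2 per CDH1 moved from 0.359, 0.353 and 0.459 to 0.864, 0.986 and 0.910, with no overlap.

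The ratio of CDH2 to CDH1, which summarizes the cadherin switch, was 0.0333, 0.0440 and 0.0365 in control cells and 0.0847, 0.0713 and 0.0507 with overexpression. VIM per CDH1 was 2.15, 2.04 and 1.89 in control cells and 3.81, 3.27 and 2.60 with overexpression. Both ratios were higher in all overexpressing libraries, although CDH1 alone among these 3 genes passed the test. SNAI2 per SNAI1 moved from 0.0485, 0.0376 and 0.0459 to 0.0832, 0.126 and 0.0987. The ratios of ZEB2 to CDH1 and of SNAI2 to SNAI1 were chosen after the values had been seen.

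**Figure D3:**
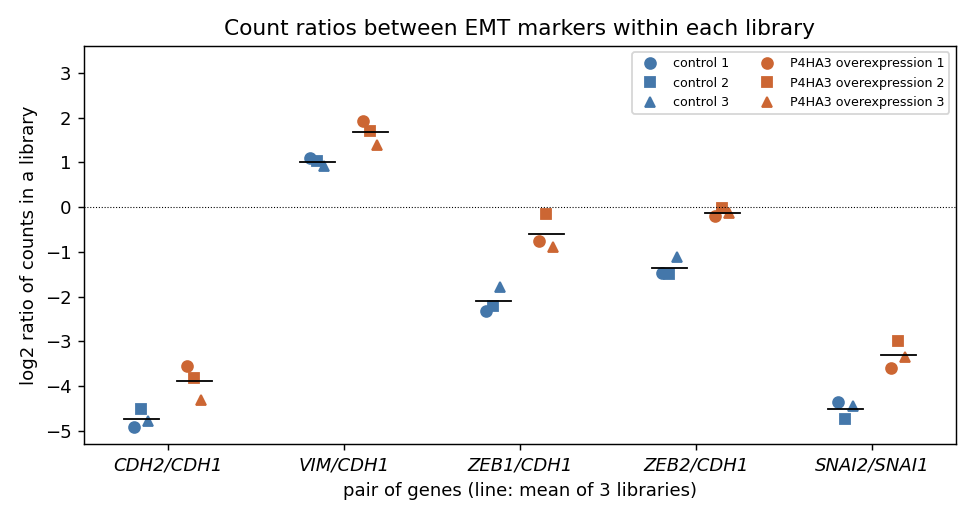
Log2 ratio of counts between pairs of EMT markers in each control library (blue) and each library with P4HA3 overexpression (orange), with black lines at group means. The groups did not overlap in any of the 5 ratios, and the mean of ZEB1 to CDH1 moved from -2.11 to -0.60. All ratios but SNAI2 to SNAI1 share CDH1, which was called lower, and SNAI2 and SNAI1 were called in opposite directions. The separation is therefore not independent of the calls.

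GC content moved with the fold change across the transcriptome, and this touches several markers. Over 15107 tested genes, Spearman's rho between log2 fold change and the GC content of the canonical transcript was -0.58, a description across genes of the same 6 libraries. ZEB1 (38.9% GC), ZEB2 (39.0%) and SNAI2 (41.2%) lay under the lower quartile of tested genes (42.4%), and SNAI1 (58.4%) lay over the upper quartile (57.1%), each on the side to which the trend ran. CDH1 (48.2%) and FN1 (50.8%) lay near the median of 49.3%.

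Libraries of the same group also differed along this trend. Deviations of a library from the mean of its group followed GC content with a rho of -0.52 for control replicate 3, -0.48 for overexpression replicate 2 and 0.45 for overexpression replicate 1. Control replicate 3 and overexpression replicate 2 were also the libraries with the highest ZEB1 of their groups. With each library's smooth trend on GC content and transcript length removed, 5 of the 10 markers were called, against 18.5% of all genes. ZEB1 (0.53, adjusted p = 0.0286), SNAI2 (0.68, 0.00993), CDH1 (-0.80, 8.92e-05), FN1 (-0.23, 0.00173) and SNAI1 (-0.22, 0.0127) passed, and ZEB2 did not. The correction removes every group difference that follows GC content or length, whatever its source, and that source was not tested.

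**Figure D4:**
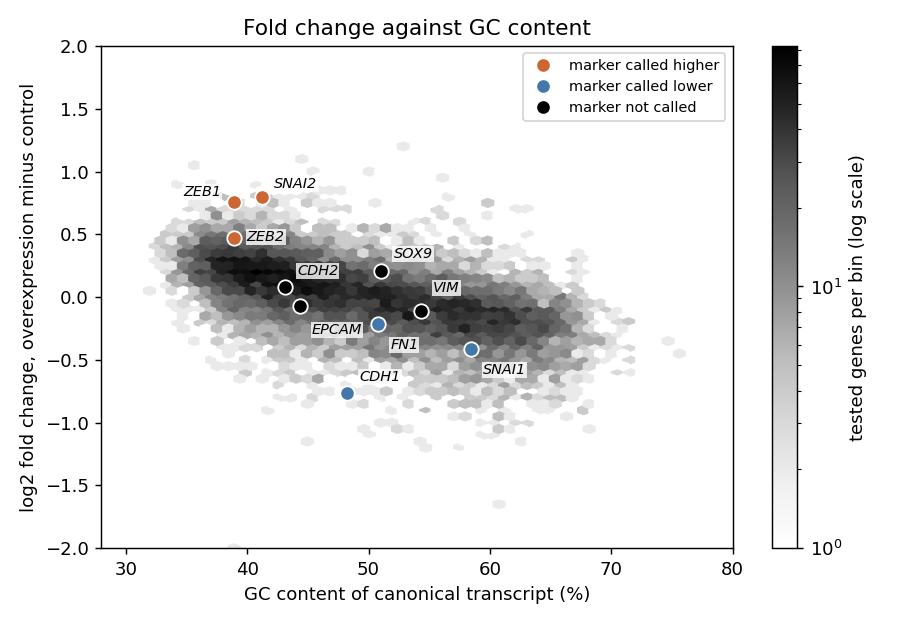
Log2 fold change with P4HA3 overexpression against GC content of the canonical transcript (%) for the tested genes (grey bins, log scale of gene number, values beyond 2 drawn at the edge), with the 10 EMT markers as points coloured by their call. ZEB1, ZEB2 and SNAI2 sit at low GC content on the rising side of the trend, and SNAI1 sits at high GC content on the falling side. CDH1, at 48.2% GC, sits low, with 2.18% of tested genes at a lower fold change.

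Reads of neighbouring antisense genes could enter some of these counts if strand was not used in counting, and the strand setting is not given in the sources used here. ZEB1-AS1 lies on the opposite strand and shares 396 of the 8650 exon bases of ZEB1. It had 55 to 86 counts per library and a log2 fold change of 0.19 ± 0.19 (adjusted p = 0.466). VIM-AS1 had at most 3 counts and ZEB2-AS1 at most 1 count in any library.

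Genes that tracked the called markers over the 6 libraries were listed as a description by Pearson's r of log2 CPM among 13369 genes of at least 1 CPM. CDH1 was tracked most closely by CCDC57 and ARHGEF4 (both r = 0.999) and by VEGFA (0.997), and 895 genes exceeded an r of 0.9 with it. SNAI1 was tracked by CEBPB (1.00), DPYSL5 (0.999) and NAT14 (0.998), ZEB1 by IFT88, GOPC and ZFR (each 0.997), and ZEB2 by NFATC3, RANBP9 and PARP4 (0.998, 0.998 and 0.997). SNAI2 was tracked by CLCC1, ALG11 and TNPO3 (0.998, 0.997 and 0.996), and FN1 by LRP8, UBE2V1 and EPPK1 (0.990, 0.989 and 0.987). These points share libraries, depth and the GC trend, and 1907 genes exceeded 0.9 with SNAI1.

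Around the markers, 8 lists of genes of the EMT pathway were described, which were also chosen with earlier results of these data known. Of 133 genes, 107 could be tested, and 17 were higher and 17 lower with overexpression (31.8%, against 20.8% of all genes tested). The median log2 fold change over the lists was 0.03, and over all tested genes it was 0.01. The calls numbered 15, 14 and 16 once control replicate 1, control replicate 2 or overexpression replicate 3 was dropped. The 10 named genes that were called with any 1 library left out were ST14, SPINT1, TAGLN, TPM1, TGFBI, ID2, TGFB1, CDH3, CDH24 and AJUBA.

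Among the other cadherins, 3 of 8 genes were tested, 1 was higher (against 9.36% of all genes tested) and 2 were lower (against 11.4%). CDH3 encodes P-cadherin, an epithelial cadherin, and lies next to CDH1 on chromosome 16 (68636189 to 68727468). It fell from 18.5, 16.6 and 14.3 CPM to 8.03, 7.83 and 7.85 CPM, with no overlap and a log2 fold change of -1.06 ± 0.11 (adjusted p = 0.000613). CDH24 was lower (-0.55) and CDH13, a cadherin anchored to the membrane by a lipid, was higher (0.33). Both were called at smaller values with the GC trend removed, -0.31 for CDH24 and 0.16 for CDH13 (adjusted p = 0.00799 and 0.04998). CDH13 was called in 5 of the 6 fits with 1 library left out.

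Epithelial state regulators gave 5 lower calls and 1 higher call among 13 tested genes of 21 (11.4% and 9.36% of all genes tested), with a median of -0.31 and of -0.32 with the GC trend removed. ST14, the membrane protease matriptase, fell from 4.15, 4.08 and 3.56 CPM to 1.72, 1.82 and 1.77 CPM (-1.15 ± 0.14, adjusted p = 0.00124). SPINT1, which encodes an inhibitor of matriptase, fell from 75.9, 80.6 and 68.5 CPM to 52.1, 47.5 and 50.7 CPM (-0.58), and ESRP1, an epithelial splicing regulator, fell from 1.93 to 1.19 CPM (-0.70). The value of SPINT1 was -0.38 with the GC trend removed, and the call of ESRP1 was lost with DESeq2. KLF4 was higher by 0.24 at the edge of the threshold (adjusted p = 0.0498). Its call was lost with upper-quartile scaling, library size only, at least 10 counts in every library and DESeq2. KLF4 and ESRP1 were each called in 2 of the 6 fits with 1 library left out. With the GC trend removed KLF4 was called at 0.37 (adjusted p = 0.00567). Of the catenins and tight junction genes, 4 were lower and 1 was higher of 19 tested genes of 22 (26.3%, against 20.8% of all genes tested), with a median of -0.04 and of -0.15 with the GC trend removed. CLDN4 (-0.93), TJP3 (-0.68) and F11R (-0.39), which encode a claudin, a tight junction scaffold and a junctional adhesion molecule, were lower, and PALS1, a polarity scaffold, was higher (0.38). The calls of TJP3 and PALS1 were lost with the GC trend removed (adjusted p = 0.119 and 0.0588). CLDN4, TJP3, F11R and PALS1 were each called in 3 of the 6 fits with 1 library left out.

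Mesenchymal effector genes gave 6 higher and 1 lower call among 23 tested genes of 25 (against 9.36% higher and 11.4% lower of all genes tested), with a median of 0.06 and of 0.10 with the GC trend removed. TAGLN, which encodes the actin-binding protein transgelin, rose from 9.03, 9.15 and 8.34 CPM to 17.9, 16.9 and 16.8 CPM (0.96 ± 0.088, adjusted p = 0.000436). TPM1, a tropomyosin, rose by 0.57, and TGFBI, a matrix protein induced by TGF-beta, rose by 0.46. S100A4, a calcium-binding protein often used as a mesenchymal marker, fell by 0.47 and was called in 3 of the 6 fits with 1 library left out.

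Other EMT transcription factors and inhibitors gave 2 higher and 1 lower call among 13 tested genes of 15 (23.1%, near the 20.8% of all genes tested), with a median of 0.03 and of 0.11 with the GC trend removed. ID2 and ID3, inhibitors of basic helix-loop-helix factors, rose by 0.67 and 0.35, and TWIST2 fell by 0.41. ID3 was at 0.52 and TWIST2 at -0.22 with the GC trend removed. ID3 was called in 5 and TWIST2 in 4 of the 6 fits with 1 library left out. TWIST1, named here after its value was seen, measured 4.61 and 4.64 CPM in control and overexpressing cells (adjusted p = 0.949). In the TGF-beta pathway, 1 gene was higher and 3 were lower of 18 tested (22.2%, near the 20.8% of all genes tested), with a median of 0.07. With the GC trend removed 3 were higher and 4 lower, with a median of -0.0075. The ligand genes TGFB1 and TGFB3 fell by 0.41 and 0.40, LTBP3, which binds the latent ligand, fell by 0.40, and SMURF2, a ubiquitin ligase of the pathway, rose by 0.24. With the GC trend removed TGFB1 was at -0.16 (adjusted p = 0.0169), and the calls of LTBP3 and SMURF2 were lost (adjusted p = 0.0803 and 0.325). SMURF2 was called in 5 of the 10 alternatives and in 1 of the 6 fits with 1 library left out. TGFB3 was called in 3 of those 6 fits and LTBP3 in 5.

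Repressor partners of the EMT factors gave 4 higher calls and no lower call among 15 tested genes. This was 26.7%, against 20.8% of all genes tested called in either direction and 9.36% called higher. The median of the list was 0.22 and became 0.13 with the GC trend removed, and the 3 genes with negative values did not pass. AJUBA, a LIM protein that binds SNAI proteins, rose by 0.34, and the corepressor CTBP2 rose by 0.26 (0.16 with the GC trend removed). HDAC2 was higher by 0.23, and its value became -0.04 with the GC trend removed (adjusted p = 0.759). CTBP2 was called in 3 and HDAC2 in 2 of the 6 fits with 1 library left out. Among SOX genes, 3 of 9 were tested, with 1 higher and 1 lower (against 9.36% and 11.4% of all genes tested). SOX6 rose from 2.13 to 3.66 CPM (0.78) and SOX12 fell by 0.29, a call lost with the GC trend removed (adjusted p = 0.287). SOX6 and SOX12 were each called in 3 of the 6 fits with 1 library left out.

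Marker lists of other cell types were set beside these values. Of 9 epithelial genes, 8 were tested and 4 were lower (against 11.4% of all genes tested), and their summed level was 11836 to 13477 CPM in control cells and 11087 to 12645 CPM with overexpression. Of 10 smooth muscle genes, 5 were tested and 2 were higher (against 9.36%), TAGLN among them, and the sum of 157 to 163 CPM in control cells became 177 to 190.3 CPM with overexpression. The 7 fibroblast genes had adjusted p-values of 0.0818 to 0.781, 6 had negative fold changes, and the list summed to 188 to 198 CPM and to 148 to 189 CPM. Of 7 leukocyte and endothelial genes, PTPRC, CD3E, CD68, CDH5 and VWF were at or near 0, and CD14 and PECAM1 were lower, which brought the sum from 93.9 to 113 CPM down to 36.4 to 52.3 CPM. The part of other cells in the marker values was not tested.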

How the data were processed

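RNA-seq of 3 control and 3 P4HA3-overexpressing samples of SiHa PR cells was used. According to the study's methods, poly-A RNA was made into strand-specific (dUTP) libraries and sequenced as paired ends, and reads were aligned to GRCh38 with STAR and counted with HTSeq. The submitters' processing notes name HISAT2 instead of STAR. Tool versions and the strand setting are not given in the sources used here. The authors deposited raw counts for 60664 Ensembl genes, of which 60463 matched the GENCODE 44 annotation used for symbols, positions, length and GC content. Total counts ran from 21773488 to 24939948 per library, and low genes such as CDH2 are limited by counting.

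The test was run on these counts in edgeR 4.0.16 under R 4.3.3 (filterByExpr with a minimum count of 10, TMM, two-sided quasi-likelihood test, Benjamini-Hochberg over the 15130 genes tested, threshold 0.05). Markers and lists were read from this fit, and every adjusted p in the text comes from it or from a named alternative. Levels are TMM-normalized CPM, fold changes are unshrunk, and SE is the log2 fold change divided by the root of F. Ratios used a pseudocount of 0.5 counts. No 2 libraries matched within sampling noise (chi-square test of their counts), so each was counted once. Alternatives were DESeq2 1.42.0, limma-voom (limma 3.58.1), RLE, upper-quartile and library-size scaling, no filter, at least 10 counts in every library, the replicate number as a block, a correction for GC content and length by smooth terms (mgcv 1.9.3) with and without that block, and each library left out. The fit was tested on simulated data.

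The members and lists were chosen with earlier results of these data known. Named genes are P4HA3, the 10 markers, in each list up to 3 rises and 3 falls with an adjusted p under 0.05 and a mean of at least 1 CPM, and for each called marker the 3 genes with the highest Pearson r. Lists were epithelial state regulators, catenins and tight junction genes, mesenchymal effectors, other EMT transcription factors, TGF-beta pathway, SOX family, other cadherins, repressor partners and markers of 4 kinds of cell. Antisense genes, keratins, other cell markers and TWIST1 were named outside that rule.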

Additional observations from a re-analysis of the deposited data

How the results depend on the processing

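With all libraries, 6 of 10 markers were called under 8 of the 10 alternatives and 5 with the correction for GC content and length, alone or with the replicate block. CDH1 was called under all 10 and with each library left out. EPCAM and SOX9 kept their direction and passed in none. ZEB2 lost its call with the correction (0.22, adjusted p = 0.152) and with block and correction (0.23, adjusted p = 0.0939). Values that changed sign were those of CDH2 (-0.036 with the correction, -0.041 with block and correction, and -0.032 to 0.22 over the fits with 1 library left out) and VIM (0.0043 and 0.0030). DESeq2 gave CDH2 no adjusted p. Leaving out 1 library gave 1 to 6 called markers, 14 to 50 called list genes and 534 to 5530 called genes in all. The list genes called rose from 34 to 53 with block and correction. Genes called higher, 1416 in the main test, numbered 2384 with no filter, 2138 with the block and 2136 with block and correction. The cause of these shifts was not tested. The 5 count ratios kept their direction with a pseudocount of 1 and with each library left out. Leaving out a library could not reverse them, because the groups did not overlap in any ratio. The correction for GC content and length was not applied to the ratios.

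The replicate numbers share only a name in the labels. Deviations of same-numbered libraries correlated at 0.25, -0.049 and 0.030, so the numbers were not taken as pairs, and not every library correlated best with its own number. With the replicate block, 6 markers, 45 list genes and 4313 genes in all were called.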
